A study of Sus scrofa with 9 samples.

Results

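Spleens of Ningxiang pigs, a native Chinese breed, were compared between postnatal day 30 and postnatal day 90, with 3 libraries at each age. The labels give breed, tissue and age, name no treatment and no genotype, and do not state sex. Whether sex differs between the libraries was not tested, so its part in a difference cannot be told apart from that of age. A further 3 libraries of day 210 entered the fit so that the spread between libraries was estimated over 9 libraries, and their levels are given as side values. All loci of the authors' gene table with a mean of at least 1 FPKM (fragments per kilobase of locus, scaled to the reads of the library, a level per length) over the 9 libraries were taken, which left 19264 of 28095 loci. Of 18908 circular RNAs (circRNAs, closed molecules recognised by a back-splice junction) 2748 were seen in at least 4 of the 9 libraries. Counted reads per library ranged from 57.4 to 61.3 M at day 30 and from 52 to 60.3 M at day 90.

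Read counts were compared by edgeR's quasi-likelihood test, two-sided, and an adjusted p is the Benjamini-Hochberg value over all loci tested, with a threshold of 0.05. A locus that passed is said to have risen or fallen. A log2 change is day 90 minus day 30 and is followed by its standard error, and levels are deposited FPKM, written as mean ± SD of 3 libraries or per library in the order of the replicates. Only the sample names mark the libraries as separate, so p-values measure the spread between these libraries, which may be partly technical. The number of replicates is small, and a call was checked with each of the 6 libraries of the compared ages left out in turn. In these bulk libraries fewer cells of a type and less RNA per cell cannot be told apart. Coordinates are those of the deposited table, whose pig genome build is not given in the sources used here.

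Of the 19264 loci 1171 passed (6.08%), 396 of them higher at day 90 (2.06%) and 775 lower (4.02%), and 4454 had an unadjusted p under 0.05. With each of the 6 libraries left out in turn 205 of these calls remained, 55 higher and 150 lower. The count fell to 280 without day 90 replicate 1, to 327 without day 90 replicate 2, to 383 without day 30 replicate 2 and to 473 without either day 30 replicate 1 or day 90 replicate 3, and was 1080 without day 30 replicate 3. The split of the calls by direction was close under other scalings of the counts (391 higher and 801 lower with RLE size factors) and differed with the tool and the values together: limma on log2(FPKM + 1) of the deposited values called 127 loci higher and 1593 lower, so that 7.38% of its calls were higher against 33.8% in the count fit, and the median of all loci moved from 0.003 to −0.148. The FPKM groups of day 30 and day 90 did not overlap at 28.4% of all loci tested and at 1050 of the 1171 called.

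A chi-square between the counts of a pair of libraries had a median per locus of 4.751 for day 90 replicates 2 and 3. It was 8.558 and 9.16 for replicate 1 with each of them, and 6.557 to 10.9 between day 30 libraries. Day 90 replicates 2 and 3 stood apart from the other 7 libraries at loci that were picked out after their values were seen, and how many more did so was not counted. A pair of overlapping X chromosome loci with no description, MSTRG.21405 (61125003 to 61156904) and MSTRG.21406 (61136059 to 61156879), had 25.6 and 17.6 FPKM and 40.6 and 46.1 FPKM in these libraries, and at most 0.00902 and 0.0811 FPKM in the other 7. Without day 90 replicates 2 and 3 the log2 change of MSTRG.21405 turned from 12.19 (adjusted p = 0.0313) to −5.65, and 5 of the 6 left-out libraries ended its call (up to 0.118 without day 30 replicate 2). The X-linked translation factor subunit EIF2S3 had 24.6 and 25.2 FPKM in these libraries and 12.8 to 20.4 FPKM in the others. MSTRG.7477 on chromosome 5 was listed at 0 in both and at 7.47 to 13.8 FPKM in the others, and MSTRG.13356 on chromosome 10 had 2940 and 2840 FPKM against 99.2 to 837 FPKM. Without both libraries, with day 90 replicate 1 as the lone library of its age and assumed to vary like the others, 9 loci passed (4 higher and 5 lower), 4 of them among the 1171.

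The spleen markers that could be matched by description (5 of 9 names) summed to 114 to 127 FPKM at day 30 and 101 to 137 FPKM at day 90. Among the 5 loci of that list tested 2 rose and 1 fell: the B cell proteins CD79B, the antigen receptor beta chain (0.84, adjusted p = 0.00818), and CD20 (1.32, adjusted p = 0.0122) rose, and the homeobox protein Nkx-2.5 fell by 0.8 (adjusted p = 0.0267). Erythroid markers (10 of 16 names) summed to 2520 to 5020 FPKM at day 30 and 951 to 1930 FPKM at day 90, and 7 of 10 fell. Most of this sum was hemoglobin subunit alpha, at 2390 to 4910 and 938 to 1900 FPKM, which did not pass (−1.15, adjusted p = 0.24). Erythroid 5-aminolevulinate synthase (−1.41, adjusted p = 0.174) and alpha-hemoglobin-stabilizing protein (−1.82, adjusted p = 0.083) did not pass either. Platelet markers (6 of 7 names) summed to 30.5 to 36.4 and 11.7 to 13.1 FPKM, and 3 of the 5 tested fell. Markers of fat (6 of 7 names), pancreas (2 of 9), liver (2 of 7, 1 of them at 0) and skeletal muscle (7 of 8) summed to at most 8.38 FPKM in any library of either age. The pancreas sums were 3.3 to 8.38 FPKM at day 30 and 1.11 to 3.4 FPKM at day 90, and the fat sums 2.23 to 3.68 and 1.05 to 1.85 FPKM. The part of these shifts in the results below was not tested.

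The spleen filters blood in its red pulp and mounts antibody and T cell responses in its white pulp, both held by a framework of collagen fibres, reticular cells, smooth muscle and sinus endothelium. In the young mammal the organ grows its framework and builds B cell follicles, and in some species it still makes red cells. Matrix proteins are laid down by stromal cells and trimmed by secreted proteases, and growth factors, ephrins and semaphorins signal between stroma, vessels and blood cells through surface receptors. To describe what changed beyond cell type markers, 91 protein families were collected by words in the deposited descriptions, ordered below from the outside of the cell inward. They hold 2832 of the loci tested, of which 255 passed.

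Over all loci with an informative description (9948) the median log2 change was −0.06 and 6.85% passed (1.41% higher and 5.44% lower), the FPKM groups did not overlap at 35.7%, and each family is read against these values. Falls alone were called in 40 families, rises alone in 9, and no member was called in 20. In 66 of the 71 families with a call, the count of calls dropped by over 1.5 times with at least 1 of the 6 libraries left out. The median was −0.5 or lower in 9 families and 0.5 or higher in 2. None of these 11 medians changed sign under the other scalings tried, while 15 medians of 0.17 or less in size did.

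**Figure D1:**
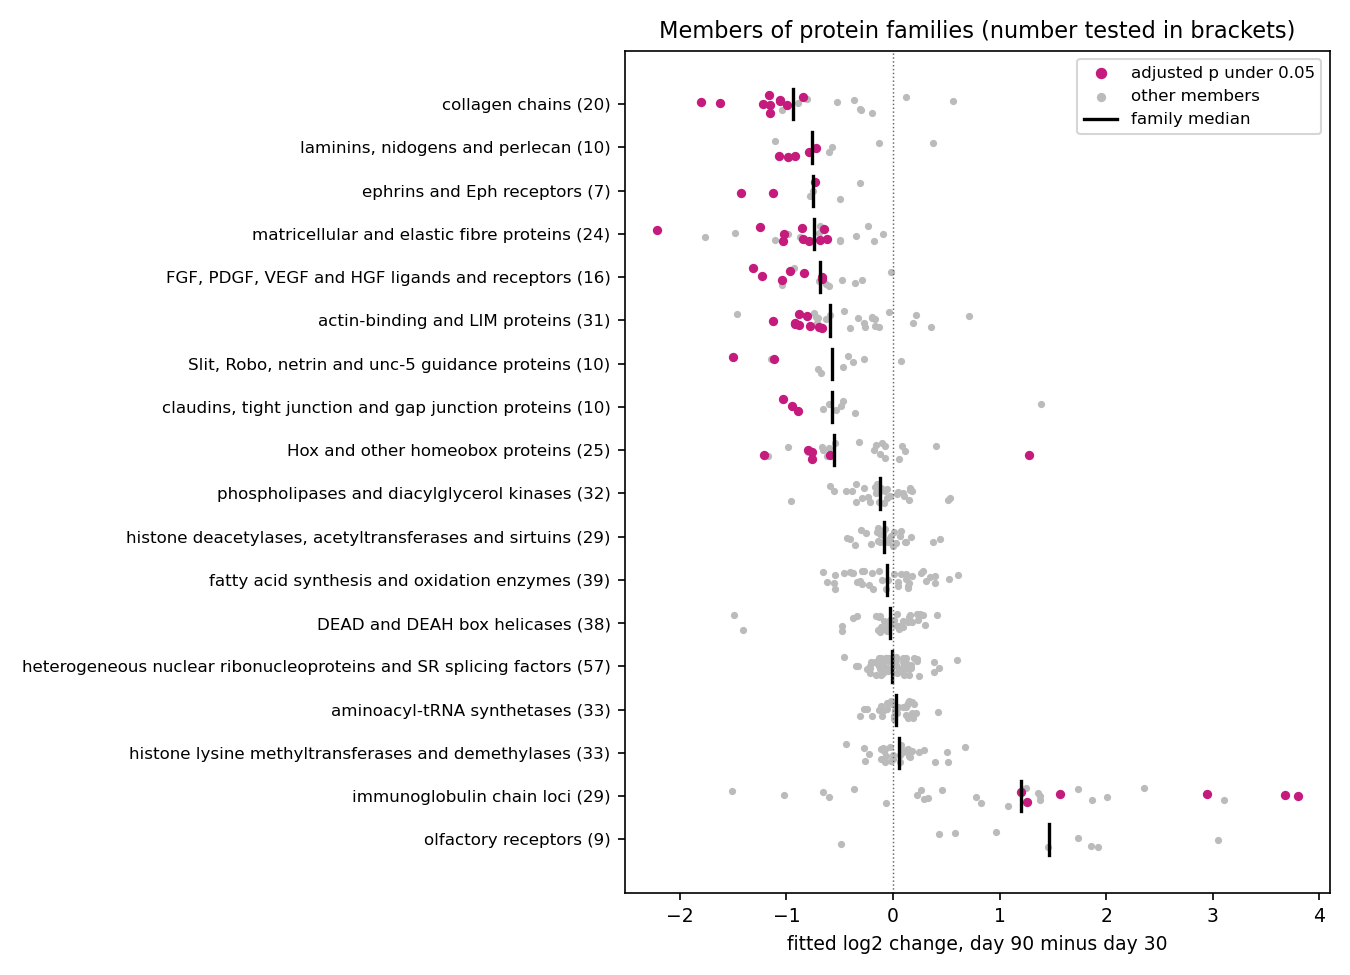
Fitted log2 change (day 90 minus day 30) of each tested member of the families with a median of at least 0.5 in size and of the largest families with no member called, 1 point a locus, with the family median as a black bar. Collagen chains (median −0.94) stand at the low end, families of RNA handling and chromatin cluster around 0, and immunoglobulin chain loci (median 1.2) are spread over the high end.

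Collagen chains fell most as a family: 10 of 20 tested fell and none rose, with a median of −0.94, and 18 were below 0. Collagen alpha-1(XXVI), a chain with an emilin domain (MSTRG.4718, chromosome 3, 91842967 to 92004893), had 7.89, 9.64 and 10.5 FPKM at day 30 and 1.97, 2.47 and 2.37 FPKM at day 90. All day 30 libraries lay far above those of day 90, and the locus fell by 1.8 ± 0.2 on the log2 scale (adjusted p = 0.00586). Collagen alpha-1(VI), of the beaded filaments around cells (MSTRG.17110, chromosome 13), went from 45.6, 49.3 and 41.8 FPKM to 20.3, 17.8 and 21.2 FPKM, again with no overlap, and fell by 0.99 ± 0.15 (adjusted p = 0.0109). Together with collagen alpha-2(V) these calls remained with each of the 6 libraries left out. The neighbouring chains of the basement membrane, collagen alpha-1(IV) and alpha-2(IV), were the most abundant that fell, from 91.1 ± 12.4 to 35.5 ± 3.15 FPKM and from 76.1 ± 7.27 to 31.7 ± 2.98 FPKM. Their changes of −1.15 ± 0.19 and −1.06 ± 0.17 (adjusted p = 0.0136 and 0.012) lost the call without 2 of the 6 libraries each, with adjusted p = 0.0573 and 0.0526 without day 90 replicate 1. With day 90 replicate 1 or 2 left out, 3 collagen chains passed.

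Laminins, nidogens and perlecan, which with collagen IV form the sheet under endothelium and around smooth muscle, had 5 falls among 10 members and a median of −0.76. Laminin gamma-1, shared by most laminin trimers, had 15.1, 18.1 and 14.2 FPKM at day 30 against 7.5, 6.61 and 6.69 FPKM at day 90 (−0.99 ± 0.16, adjusted p = 0.0123). Leaving out day 90 replicate 1, and no other library, ended this call (adjusted p = 0.054), and without that library 0 members of the family passed. Perlecan fell from 47 ± 8.65 to 21.5 ± 1.84 FPKM (−0.92 ± 0.2, adjusted p = 0.0313), a call that 5 of the 6 left-out libraries ended, with adjusted p up to 0.122 without day 90 replicate 1.

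All 24 matricellular and elastic fibre proteins were below 0, with a median of −0.74, and 10 fell. Fibulin-2, of elastic fibres and basement membranes, had 4.86, 5.37 and 5.34 FPKM at day 30 and 2.61, 2.11 and 1.95 FPKM at day 90. Its fall of 1.03 ± 0.12 (adjusted p = 0.00782) remained with each library left out. Fibulin-1 fell by 2.21 ± 0.34 (adjusted p = 0.0116), from 2.39 ± 0.431 to 0.445 ± 0.0234 FPKM, and lost its call without day 90 replicate 1 (adjusted p = 0.0517), when 1 member of the family passed. Among the 5 small leucine-rich proteoglycans, which coat collagen fibrils, 0 passed and all were below 0, with decorin at 26.7 ± 6.6 and 10.8 ± 3.4 FPKM (−1.09 ± 0.31, adjusted p = 0.0729).

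Proteases that trim matrix moved in both directions, with 10 falls and 2 rises among 31 ADAM, ADAMTS and matrix metalloproteinase loci (median −0.46). ADAM12, a membrane protease of mesenchymal cells (MSTRG.18471, chromosome 14, 133741773 to 134115438), went from 4.51, 5.53 and 6.92 FPKM to 1.58, 0.982 and 1.56 FPKM. It fell by 1.83 ± 0.24 (adjusted p = 0.00817). ADAMTS2, which removes the amino-terminal propeptide of fibrillar collagens, had 9.1, 9.51 and 8.35 FPKM against 3.68, 2.47 and 2.76 FPKM and fell by 1.41 ± 0.12 (adjusted p = 0.00586), and a second locus carries the same description. ADAMTS9 fell by 1.33 ± 0.17 (adjusted p = 0.00782) and ADAMTS8 by 1.21 ± 0.18 (adjusted p = 0.0109), and these 4 calls remained with every library left out in turn. BMP1, the protease that removes the other propeptide of the same collagens, had 8, 8.31 and 7.63 FPKM at day 30 and 3.66, 3.29 and 3.79 FPKM at day 90 (−0.94 ± 0.14, adjusted p = 0.00999, kept with each library left out). Enzymes that crosslink and hydroxylate collagen had 2 falls among 11, of which lysyl oxidase homolog 2 fell by 1.1 ± 0.18 (adjusted p = 0.0135, lost without 2 of the 6 libraries, up to 0.0558 without day 90 replicate 2).

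**Figure D2:**
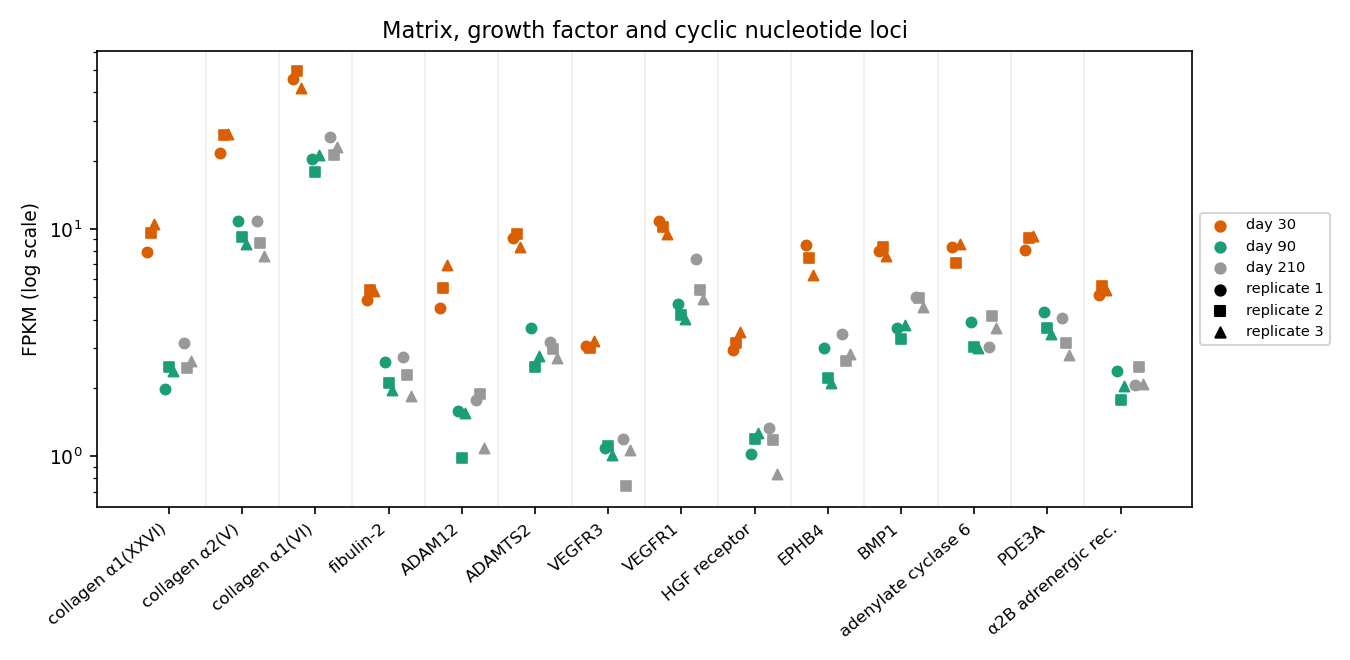
FPKM (log axis) in each library of 14 loci for matrix, growth factor receptor and cyclic nucleotide proteins, coloured by age and shaped by replicate. For each of them all 3 day 30 libraries lie above all 3 day 90 libraries, and the day 210 libraries are drawn in grey.

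Adhesion molecules fell in part. Among 17 integrin subunits 3 fell (median −0.4), of which integrin beta-3 went from 16, 8.46 and 11.7 FPKM to 4.36, 2.55 and 3.06 FPKM (−1.68 ± 0.26, adjusted p = 0.0111). Its partner on platelets, integrin alpha-IIb, is one of the platelet markers whose sum fell as given above. Of 18 cadherins and protocadherins 4 fell and 1 rose (median −0.25). Protocadherin Fat 4, a very large cadherin of planar cell polarity, had 6.6, 7.87 and 9.08 FPKM against 3.17, 3.79 and 3 FPKM and fell by 1.02 ± 0.17 (adjusted p = 0.0141), as it did with each library left out (adjusted p up to 0.0499). Cadherin-1 fell by 1.16 ± 0.24 (adjusted p = 0.0251) and protocadherin gamma-B3 rose by 1.12 ± 0.23 (adjusted p = 0.0262), but these calls were ended by 5 and 4 of the 6 left-out libraries, with adjusted p up to 0.0989 without day 90 replicate 1 and 0.0877 without day 30 replicate 1. Claudins and junction proteins had a median of −0.57 and 3 falls among 10, with claudin-5 of endothelial tight junctions at 9.85 ± 1.6 and 4.62 ± 0.437 FPKM (−0.89 ± 0.16, adjusted p = 0.0165, lost without 3 of the 6 libraries, up to 0.0695 without day 90 replicate 1).

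Of 16 ligands and receptors of the FGF, PDGF, VEGF and HGF families 7 fell and none rose, and the log2 changes ranged from −1.32 to −0.02 with a median of −0.68. VEGF receptor 3, known from lymphatic endothelium, had 3.06, 2.99 and 3.23 FPKM at day 30 and 1.09, 1.11 and 1.01 FPKM at day 90, a fall of 1.32 ± 0.18 (adjusted p = 0.00818). The receptor of hepatocyte growth factor, MET, went from 2.93, 3.14 and 3.51 FPKM to 1.03, 1.19 and 1.27 FPKM and fell by 1.22 ± 0.21 (adjusted p = 0.014). These and VEGF receptor 1 were called with each of the 6 libraries left out, and the groups did not overlap in any of them. At day 210 VEGF receptor 3 stood at 0.742 to 1.19 FPKM and MET at 0.835 to 1.34 FPKM, near their day 90 levels.

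Families that guide migrating cells and axons, and that act on vessels as well, were lower too. Ephrins and Eph receptors had a median of −0.75 and 3 falls among 7. EphB4, the receptor that marks veins, had 8.53, 7.49 and 6.26 FPKM against 2.99, 2.22 and 2.1 FPKM (−1.42 ± 0.16, adjusted p = 0.00586). The netrin receptor UNC5C fell by 1.12 ± 0.16 (adjusted p = 0.00867), from 2.63, 2.08 and 2.02 FPKM to 1.17, 0.768 and 0.8 FPKM, and like EphB4 kept its call with each library left out. Slit homolog 3, a secreted ligand of Robo receptors, was the most abundant of the Slit, Robo and netrin proteins that fell, at 54, 34.1 and 23.9 FPKM at day 30 and 11.8, 11.3 and 11.4 FPKM at day 90. It fell by 1.5 ± 0.28 (adjusted p = 0.0188), a call that 4 of the 6 left-out libraries ended (adjusted p up to 0.0782 without day 90 replicate 1). Of 23 semaphorins and plexins 5 fell (median −0.36), and none of these calls remained with every library left out.

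In developmental signalling, BMP, TGF-beta and activin proteins had 6 falls among 25 (median −0.42), Wnt proteins 2 among 14 (median −0.36) and Notch proteins 2 among 10 (median −0.4). The 6 falls of the BMP family include BMP1, the collagen protease described above, which was matched by its name. Of these 6 calls only that of BMP1 remained with each library left out. SMAD6, an inhibitor of BMP signalling, went from 6.42 ± 1.1 to 2.64 ± 0.304 FPKM (−1.08 ± 0.18, adjusted p = 0.0136), with 0.0586 when day 90 replicate 1 was left out. The secreted Wnt inhibitor described as secreted frizzled-related protein 3 went from 21.8 ± 5.96 to 8.83 ± 0.363 FPKM (−1.1 ± 0.26, adjusted p = 0.0389), with adjusted p up to 0.143 without day 90 replicate 1 and the call lost without 5 of the 6 libraries. DAAM2, a formin that links Wnt receptors to actin, had 14.9, 12.2 and 12.1 FPKM against 5.56, 5.33 and 5.09 FPKM, and its fall of 1.08 ± 0.14 (adjusted p = 0.00782) stayed past the threshold with every library left out.

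Among receptors coupled to G proteins, 4 of 18 adhesion receptors and 3 of 26 receptors for small molecules and lipids fell, and none rose. The alpha-2B adrenergic receptor, which lowers cyclic AMP in response to noradrenaline, had 5.15, 5.64 and 5.4 FPKM at day 30 and 2.37, 1.77 and 2.04 FPKM at day 90. It fell by 1.19 ± 0.16 (adjusted p = 0.00826). Enzymes that make and break cyclic nucleotides had 5 falls and 1 rise among 22 (median −0.43). Adenylate cyclase type 6 went from 8.37, 7.06 and 8.63 FPKM to 3.9, 3.03 and 3 FPKM (−1.08 ± 0.15, adjusted p = 0.00852), the cGMP-specific phosphodiesterase from 9.3, 7.6 and 8.55 FPKM to 4.53, 2.88 and 3.61 FPKM (−1.02 ± 0.16, adjusted p = 0.0127), and the cGMP-inhibited phosphodiesterase A from 8.12, 9.16 and 9.34 FPKM to 4.33, 3.66 and 3.47 FPKM (−1.01 ± 0.13, adjusted p = 0.00782). All 4 loci had non-overlapping groups and kept the call with each library left out. Of 73 loci matched by the words for phosphoinositide enzymes 5 fell and none rose (median −0.04), and 2 of these kept the call with each library left out. The regulatory subunit gamma of phosphatidylinositol 3-kinase had 3.48, 2.8 and 3.55 FPKM against 1.4, 0.962 and 1.02 FPKM (−1.34 ± 0.2, adjusted p = 0.0105). The phosphodiesterase delta-3, a phospholipase C that splits a membrane phosphoinositide into second messengers, had 1.82, 1.64 and 2.04 FPKM against 0.742, 0.644 and 0.656 FPKM (−1.21 ± 0.16, adjusted p = 0.00782) and was at 1.32 to 1.43 FPKM at day 210.

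The exchange factor DOCK1, which activates Rac during migration and engulfment, had 9.33, 9.32 and 8.97 FPKM against 4.98, 4.06 and 4.56 FPKM and fell by 0.82 ± 0.11 (adjusted p = 0.00867). Its call remained with each library left out. Among 31 actin-binding and LIM proteins 9 fell and none rose, with a median of −0.59, and 3 passed without day 30 replicate 1 or day 90 replicate 1 and 4 without replicate 2 of either age. A tropomyosin alpha-4 chain-like locus, of the stress fibres of non-muscle cells, was at 64.1, 58 and 55.6 FPKM at day 30 and 30.3, 24.2 and 27.1 FPKM at day 90 (−0.92 ± 0.14, adjusted p = 0.0106, called with each library left out).

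Other parts of the cytoskeleton held single members that changed and many that were not called. Tubulin beta-6 had 13.7, 12.8 and 11 FPKM against 4.76, 4.17 and 4.6 FPKM (−1.26 ± 0.15, adjusted p = 0.00782) in a family of 39 tubulins and microtubule proteins with 4 falls and a median of −0.28. Nestin, an intermediate filament of progenitor cells and growing endothelium, went from 5.81, 6.56 and 7.11 FPKM to 2.34, 2.2 and 2.43 FPKM (−1.26 ± 0.15, adjusted p = 0.00782), the only call among 6 filament proteins. Septin-8 (−0.8 ± 0.12, adjusted p = 0.00991) and the vesicle coat subunit zeta-2 of coatomer (−1.24 ± 0.19, adjusted p = 0.012) were further members called with each library left out, as were tubulin beta-6 and nestin. At day 210 nestin stood at 3.28 to 4.56 FPKM, between its levels at the earlier ages.

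Transcription factors divided by family. Homeobox proteins, which set position and cell identity, had 5 falls and 1 rise among 25 (median −0.55), none of which remained with every library left out. SOX-6, known in mouse and human for silencing embryonic globin genes in red cell precursors, fell by 2.69 ± 0.34 (adjusted p = 0.00782), from 4.29, 1.85 and 3.2 FPKM to 0.357, 0.524 and 0.346 FPKM, while the 18 SOX and forkhead factors had a median of 0.00 and 2 falls. ID-1, which blocks E proteins of the bHLH class, went from 18.6, 20.4 and 23.6 FPKM to 10.5, 7.16 and 8.6 FPKM (−1.05 ± 0.13, adjusted p = 0.00782) and stood at 14.5 to 15.8 FPKM at day 210. SOX-6 and ID-1 kept their calls with each library left out. Of 257 zinc finger proteins with a number name 1 rose and 5 fell. None was called among 19 loci matched by description as T-box, GATA, RUNX and ETS factors, or among 23 matched as nuclear receptors and coregulators. These words missed GATA1, described as erythroid transcription factor, which fell (−1.51, adjusted p = 0.0247). They also missed the nuclear receptor steroidogenic factor 1, which fell within a run on chromosome 2.

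The largest falls of described loci were among proteins of red cells and of their membrane. The erythroid marker sum given above, mostly of hemoglobin subunit alpha, which did not pass, was also lower at day 90. Carbonic anhydrase 2, the neighbour of the red cell enzyme carbonic anhydrase 1 on chromosome 4 (MSTRG.5588, 37580765 to 37596602), had 40.1, 15.2 and 18.3 FPKM at day 30 and 0.64, 1.61 and 0.756 FPKM at day 90, and fell by 4.36 ± 0.55 (adjusted p = 0.00782). Carbonic anhydrase 1 fell as well, and the other 4 of the 6 tested carbonic anhydrases did not pass. Erythroid membrane-associated protein, a butyrophilin-like protein that carries the Scianna blood group in humans, had 10.3, 2.39 and 6.22 FPKM against 0.254, 0.168 and 0.139 FPKM (−4.89 ± 0.48, adjusted p = 0.00586). Tripartite motif-containing protein 10, needed in mouse for red cell maturation, fell as far (−4.89 ± 0.49, adjusted p = 0.00586), from 7.53, 2.16 and 4.6 FPKM to 0.14, 0.119 and 0.136 FPKM. TRIM58, a ubiquitin ligase of late erythroblasts, fell by 3.59 ± 0.58 (adjusted p = 0.0131). The calls of these 4 loci remained with each library left out, and in all of them day 30 replicate 2 was the lowest of its age and still above every day 90 library. The largest falls were picked only among loci without overlap, so this separation is no further evidence.

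A multidrug resistance-associated protein 4-like locus on chromosome 11 (MSTRG.14419, 70607746 to 70657742) went from 10.7, 2.49 and 6.12 FPKM to 0.203, 0.198 and 0.23 FPKM and fell by 4.7 ± 0.5 (adjusted p = 0.00586), called with each library left out. A further pair of loci with the same description, 1 of them on a scaffold, fell by 4.58 ± 0.75 and 4.46 ± 0.72 (adjusted p = 0.0133 and 0.0127), and lost the call without 2 and 1 of the 6 libraries, with adjusted p = 0.0586 and 0.0573 without day 90 replicate 1. Reads of loci with the same description may be split between them, so which of them changed is uncertain. Their sequences were not compared. Ecto-ADP-ribosyltransferase 5 on chromosome 9 had 809 reads over the 3 day 30 libraries and 6 over the 3 day 90 libraries, and 5.87, 2.61 and 3.09 FPKM against 0, 0.0739 and 0 FPKM (adjusted p = 0.0143, and 0.0582 without day 90 replicate 1, the only left-out library that ended the call). It was between 0 and 0.252 FPKM at day 210. The exporter ABCG2 fell less, from 2.91, 3.01 and 2.64 FPKM to 1.31, 1.29 and 1.36 FPKM (−0.9 ± 0.14, adjusted p = 0.0121, called with each library left out), and in all 6 of 29 ABC transporters fell and 1 rose.

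By level rather than ratio, the largest falls among described loci that passed were those of ACTA2, SPARC, matrix Gla protein and CCL21. Hemoglobin subunit alpha, which did not pass (adjusted p = 0.24), was lower by more, at 4580, 4910 and 2390 FPKM against 938, 1900 and 1680 FPKM. Smooth muscle actin, listed as ACTA2 (chromosome 14, 98590563 to 98605313), had 658, 622 and 524 FPKM at day 30 and 182, 162 and 181 FPKM at day 90, and 427, 206 and 149 FPKM at day 210. Its fall of 1.57 ± 0.31 (adjusted p = 0.0236) was ended by 5 of the 6 left-out libraries, with adjusted p up to 0.0942 without day 90 replicate 1. SPARC, a collagen-binding matrix protein, had 130, 159 and 96.1 FPKM against 57.1, 48.5 and 59.7 FPKM (−1.02 ± 0.23, adjusted p = 0.0329), and matrix Gla protein, an inhibitor of calcification, 75.6, 155 and 87 FPKM against 35.6, 29.4 and 42.2 FPKM (−1.36 ± 0.32, adjusted p = 0.0409). These groups did not overlap, but both calls were ended by 5 of the 6 left-out libraries, with adjusted p up to 0.124 and 0.147 without day 90 replicate 1. The chemokine CCL21, which draws T cells and dendritic cells into the white pulp, had 104, 129 and 129 FPKM against 66.5, 58.7 and 55.9 FPKM (−0.79 ± 0.18, adjusted p = 0.0373), and each of the 6 left-out libraries ended this call (adjusted p up to 0.136 without day 90 replicate 1).

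Rises were fewer and smaller. Of 396 loci that rose, 274 (69.2%) did so by less than 1 on the log2 scale, with a median of 0.77, against a median of −0.923 among the 775 that fell. The largest rises with a call that remained with each library left out included enzymes and transporters as well as antibody genes.

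Glycoprotein GP2, described for pancreatic secretory granules and known in mouse and human also as the receptor for bacterial pili on M cells, rose by 2.88 ± 0.39 (adjusted p = 0.00826). It had 0.487, 0.226 and 0.208 FPKM against 2.97, 1.74 and 1.54 FPKM. The pancreas marker sums given above moved the other way and overlapped. A sodium/glucose cotransporter 1-like locus on chromosome 14 (MSTRG.17317) went from 0.522, 0.568 and 0.668 FPKM to 3.17, 1.54 and 2.2 FPKM (2.15 ± 0.22, adjusted p = 0.00586), and DBH-like monooxygenase protein 1, a copper enzyme of the endoplasmic reticulum, from 0.532, 0.696 and 0.712 FPKM to 1.99, 2.1 and 2.27 FPKM (1.93 ± 0.25, adjusted p = 0.00782). Kelch-like protein 6, an adaptor of ubiquitin ligases in B cells, rose by 0.86 ± 0.12 (adjusted p = 0.00845), from 4.02, 4.14 and 5.15 FPKM to 7.59, 6.58 and 6.64 FPKM, and was back at 4.01 to 4.34 FPKM at day 210. The neutral amino acid transporter A, a carrier of alanine and serine, rose by 1.12 ± 0.16 (adjusted p = 0.00939). In each of these 5 loci all day 90 libraries were above all day 30 libraries, and each call remained with every library left out. The groups did not overlap at 1050 of the 1171 called loci. The largest rises were picked only among loci without overlap, so for them this separation is no further evidence.

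**Figure D3:**
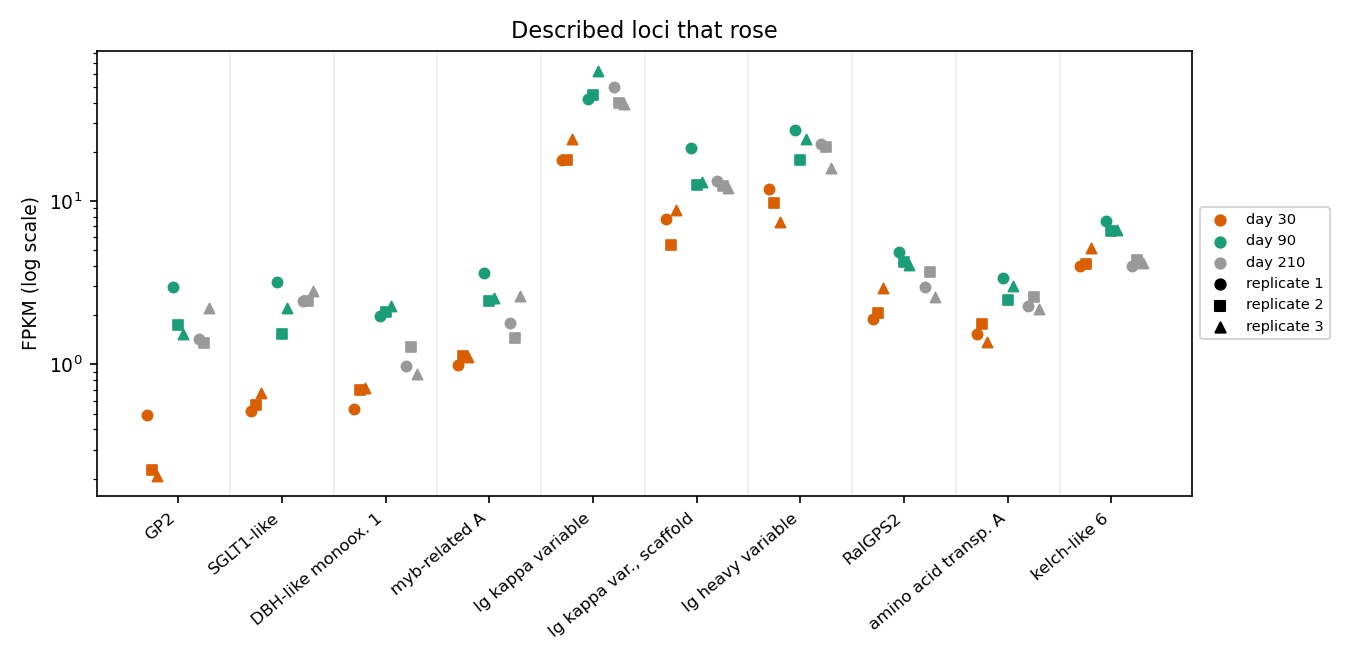
FPKM (log axis) in each library of 10 described loci that rose, coloured by age and shaped by replicate. All 3 day 90 libraries lie above all 3 day 30 libraries at each locus, which was a condition for picking the largest rises. The lowest value at day 30 is 0.208 FPKM, for GP2.

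Immunoglobulin chain loci had a median of 1.2, with 6 rises and no fall among 29 members, 6 of which were below 0. Many of them share 1 description or lie on unplaced scaffolds, so reads may be split among copies and the identity of a gene is uncertain. A kappa variable region locus on chromosome 3 (MSTRG.4396, 69856052 to 69962291) had 17.9, 17.8 and 23.9 FPKM at day 30 and 42.2, 44.2 and 62.4 FPKM at day 90 (1.56 ± 0.22, adjusted p = 0.00945). A kappa locus on a scaffold (MSTRG.22939) had 7.79, 5.41 and 8.86 FPKM against 21.1, 12.6 and 13.1 FPKM (1.26 ± 0.2, adjusted p = 0.012), and a merged heavy chain variable locus on chromosome 7 (MSTRG.10112) had 11.8, 9.76 and 7.4 FPKM against 27.1, 17.7 and 24 FPKM (1.44 ± 0.21, adjusted p = 0.00995). The first pair belongs to the 29 members and the merged locus does not, and all 3 were called with each library left out. Without day 90 replicate 3 only 2 of the 29 passed. A pair of adjacent kappa loci on 1 scaffold rose most, by 3.68 ± 0.77 and 3.8 ± 0.92 (adjusted p = 0.0273 and 0.0441), but 5 and all 6 of the left-out libraries ended these calls, with adjusted p up to 0.0968 without day 30 replicate 2 and 0.135 without day 30 replicate 1.

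Of 9 Fc and Fc-like receptors 3 rose, FCRLA, FCRL1 and FCRL4, which B cells carry. Leaving out any of 5 of the 6 libraries brought this count to 0, and the family had a median of 0.07 that turned to −0.11 under limma on log2(FPKM + 1). FCRL4 had 3.66, 5.08 and 8.65 FPKM at day 30 and 12.7, 9.06 and 13.3 FPKM at day 90 (1.24 ± 0.29, adjusted p = 0.038, with 5 of the 6 left-out libraries ending the call and adjusted p up to 0.127 without day 30 replicate 2). Paired receptors of the LILR, SIRP and Siglec type had 2 rises among 17, butyrophilins and B7 proteins 2 rises and 1 fall among 7, and histocompatibility loci 1 rise among 16, and no call in these families or among the Fc receptors remained with every library left out. The butyrophilin-like erythroid membrane-associated protein given above, whose call did remain, was not matched to these families by its description. Of 16 T cell receptor loci, 15 Toll-like and NOD-like proteins and 8 guanylate-binding and IMAP GTPases none passed. Their medians were 0.43, −0.04 and 0.17, with 15, 6 and 7 members above 0. Under limma on log2(FPKM + 1) these medians were 0.17, −0.18 and −0.03. The most abundant histocompatibility locus, a class II antigen, had 702, 631 and 554 FPKM at day 30 and 714, 503 and 453 FPKM at day 90, with overlapping groups (0.00 ± 0.19, adjusted p = 0.999).

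Large families of basic cell functions held few or no called members. None of 57 hnRNP and SR splicing factors passed (median −0.01, range −0.46 to 0.6), nor did any of 38 DEAD and DEAH box helicases, 33 aminoacyl-tRNA synthetases, 33 histone methyltransferases and demethylases, 29 histone deacetylases and acetyltransferases, 27 mitochondrial carriers or 39 enzymes of fatty acid synthesis and oxidation. Of 165 RING and HECT ubiquitin ligases 1 rose and 5 fell, among them RING finger protein 150 (−1.27 ± 0.19, adjusted p = 0.0106) and HECW2 (−1.01 ± 0.13, adjusted p = 0.00799), which were called with each library left out. Of 39 Rab GTPases 1 fell, and of 67 loci matched by the words for translation factors 1 rose. A call missed does not show that a member was the same at both ages. In a simulated contrast with these library sizes and 1 spread shared by all loci, 42 and 43 of 50 loci changed by 1.5 in log2 up and down were recovered, and all of those changed by 3. Smaller changes, spread that differs between loci and libraries that stand apart were not simulated. Olfactory receptor loci, of which 9 of 760 in the table passed the FPKM minimum, had a median of 1.46, which was 0.45 under limma on log2(FPKM + 1), with no member called.

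The called loci were spread over all chromosomes. Risen loci made up 5.02% of those tested on chromosome 16, 4.15% on chromosome 18 and 3.37% on unplaced scaffolds, against 0.716% on chromosome 10, 0.762% on chromosome 17 and 0.894% on chromosome 6. Fallen loci ranged less, from 2.93% on chromosomes 3 and X to 5.71% on chromosome 17. Median changes of chromosomes lay between −0.06 and 0.06.

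**Figure D4:**
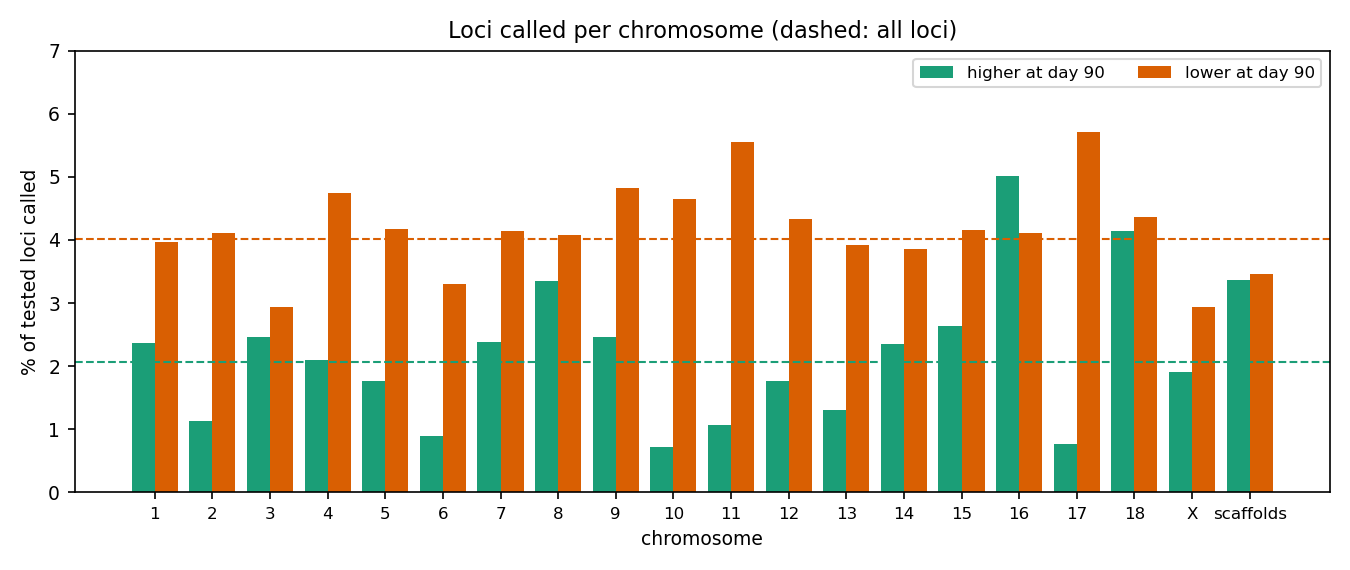
Share of the tested loci called higher (green) and lower (orange) at day 90 on each chromosome and on unplaced scaffolds, with dashed lines at the shares over all loci, 2.06% and 4.02%. The share of risen loci ranges from 0.716% on chromosome 10 to 5.02% on chromosome 16.

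Runs of at least 3 consecutive tested loci called in 1 direction numbered 34, 20 of them risen and 14 fallen, with 117 of the 1171 called loci in all. With 1 library left out they numbered 2 where that was day 30 replicate 2 or day 90 replicate 1 or 2, 4 and 5 where it was day 30 replicate 1 and day 90 replicate 3, and 29 for day 30 replicate 3. Of these loci 87 had no description and 38 overlapped a described member of their run, and strand was not stated for the counting, so reads of overlapping loci cannot be told apart. The longest run held 6 loci on chromosome 8 (120753059 to 121070335) around BANK1, the B cell scaffold protein with ankyrin repeats that couples the antigen receptor to kinases. BANK1 itself had 3.66, 4.03 and 4.58 FPKM at day 30 and 5.98, 5.16 and 5.11 FPKM at day 90 (0.61 ± 0.11, adjusted p = 0.0156, lost without 3 of the 6 libraries with adjusted p up to 0.0582 without day 90 replicate 2). The other 5 loci of this run overlap it and rose by 0.76 to 0.85 on the log2 scale.

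A run on chromosome 12 held SKAP1, an adaptor that links the T cell receptor to integrins, at 4.61, 4.66 and 4.81 FPKM against 9.04, 7.34 and 5.7 FPKM (0.83 ± 0.18, adjusted p = 0.032, ended by each of the 6 left-out libraries, up to 0.107 without day 90 replicate 1). The undescribed loci inside it, MSTRG.15312, MSTRG.15314 and MSTRG.15315, rose by 0.89 ± 0.14, 1.1 ± 0.14 and 0.98 ± 0.14 (adjusted p = 0.0113, 0.00782 and 0.00867), and all 3 were called with each library left out. On chromosome 9 the exchange factor RalGPS2 (17497417 to 17853935), which rose by 1.15 ± 0.17 (adjusted p = 0.00999) from 1.9, 2.05 and 2.93 FPKM to 4.87, 4.22 and 4.04 FPKM, overlaps each of the 4 loci of a risen run, of which MSTRG.12374 reaches past its end (17871674). Among them MSTRG.12374 rose by 2.47 ± 0.39 (adjusted p = 0.012), from 0.336, 0.293 and 0.494 FPKM to 0.933, 2.09 and 2.11 FPKM, and kept the call with each library left out, as RalGPS2 did.

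Of the 14 fallen runs 5 lay at genes whose log2 changes are given above: collagen alpha-1(IV) and alpha-2(IV) on chromosome 11, ADAM12 and DOCK1 on chromosome 14, Slit homolog 3 on chromosome 16, DAAM2 on chromosome 7 and RING finger protein 150 on chromosome 8. Overlap with described loci outside a run was not counted for the runs. Of 34 runs 11 had no described member, among them the run on chromosome 9 that overlaps RalGPS2. A risen one of 5 loci lies on chromosome 18 at 34872859 to 35053712, whose members had 1.1 to 2.55 FPKM at day 30 and 1.51 to 4.29 FPKM at day 90 and rose by 0.64 to 0.8, with 4 to 6 left-out libraries ending each call. A risen one of 4 lies on chromosome 1 at 16010746 to 16079160. Its member MSTRG.130 had 1.91, 2.09 and 2.81 FPKM against 4.37, 3.63 and 3.54 FPKM (0.97 ± 0.15, adjusted p = 0.0109) and was called with each library left out.

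Loci without description made up 45% of those tested and 38.2% of those called, but 60.4% of the risen and 26.8% of the fallen. Of 8663 such loci 447 passed (5.16%), 239 higher (2.76%) and 208 lower (2.4%), and their FPKM groups did not overlap at 19.5%. Among 10601 described loci 6.83% passed, 157 of them higher (1.48%) and 567 lower (5.35%), with no overlap at 35.6%. Of the 447, 224 (50.1%) overlap a described locus that was tested, close to the 53% among undescribed loci that did not pass, and 97 (21.7%) overlap one called in the same direction. The largest fall was at MSTRG.5896 on chromosome 4 (78412739 to 78483535), which had 13.8, 3.61 and 7.36 FPKM at day 30 and 0.0206, 0.00905 and 0.0124 FPKM at day 90, with 14218 reads over the day 30 libraries and 27 over those of day 90. It fell by 8.9 ± 0.79 (adjusted p = 0.00586), was called with each library left out, and had 0.0147 to 0.108 FPKM at day 210.

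On chromosome 7, MSTRG.11227 (126832060 to 126956442), which overlaps 6 other loci, had 59.7, 29.6 and 24.9 FPKM at day 30 and 0.771, 0.948 and 0.415 FPKM at day 90, and fell by 5.5 ± 0.71 (adjusted p = 0.00782, called with each library left out). Unlike MSTRG.5896 it was high again at day 210, with 40.1, 53.2 and 8.77 FPKM. MSTRG.9874 on the same chromosome (3926136 to 3935018) went from 43.3, 13.7 and 10.7 FPKM to 0.556, 0.28 and 0.207 FPKM and had 10.3, 3.88 and 0.739 FPKM at day 210 (−5.8 ± 0.99, adjusted p = 0.0143, lost without 3 of the 6 libraries, up to 0.0582 without day 90 replicate 2).

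Among risen loci without description that were called with each library left out, MSTRG.22978 on a scaffold had the largest gain in level, from 64.5, 64.8 and 40.7 FPKM to 163, 137 and 152 FPKM (1.61 ± 0.24, adjusted p = 0.0105), and 245 to 329 FPKM at day 210. MSTRG.13565 on chromosome 10 (32453697 to 32456985) had 3.22, 6.35 and 10.2 FPKM against 26.4, 22.3 and 24 FPKM (2.1 ± 0.32, adjusted p = 0.0114). MSTRG.22786, also on a scaffold, had 0.985, 0.304 and 0.667 FPKM against 5.9, 5.72 and 3.3 FPKM (3.12 ± 0.48, adjusted p = 0.0109). What these loci encode is not given in the table.

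**Figure D5:**
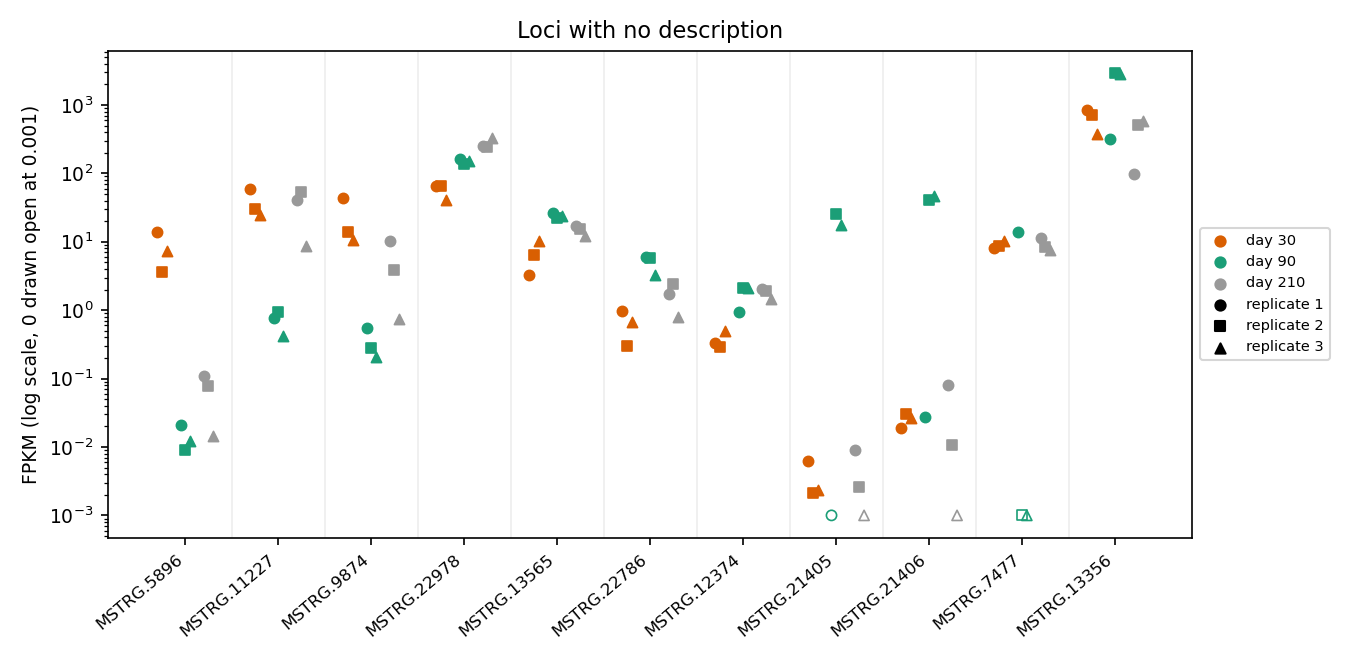
FPKM (log axis, with values of 0 drawn as open symbols at 0.001) of 11 loci with no description, coloured by age and shaped by replicate. The first 7 separate day 30 from day 90, and the last 4, chosen after their values were seen, show day 90 replicates 2 and 3 apart from replicate 1.

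CircRNAs changed little by count. Of 2748 tested, 5 passed (0.182%), 3 higher (0.109%) and 2 lower (0.0728%) at day 90, and 170 had an unadjusted p under 0.05, 88 of them higher. DESeq2 called 0, with 54 at an unadjusted p under 0.05. The tested circRNAs had a median of 1.67 junction reads per library and a biological coefficient of variation of 58.4%, against 27.3% for loci. How small a circRNA change could be detected was not tested. Per 1 M counted reads, junction reads numbered 196.2, 200.6 and 213.6 at day 30 and 256.6, 274.4 and 235.1 at day 90, with no overlap. The means, 203.5 ± 9.05 and 255.4 ± 19.7, differ by 51.9 (two-sided exact permutation p = 0.1, the smallest that 3 against 3 allows). Per 1 M mapped reads as implied by the deposited SRPBM signal the difference was 17.3 (exact permutation p = 0.4), with overlapping groups.

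Of the 5 called circRNAs 4 were annotated as intergenic, as were 355 of the 2748 tested, and spanned 28438 to 177704 bases. The circRNA with the smallest p, circRNA3306 on chromosome 4 (115111453 to 115289156), had 17, 24 and 13 junction reads at day 30, 0 in each day 90 library and 0, 0 and 15 at day 210. With 3 reads put in the place of 0 over the group it was at least 18-fold lower at day 90 (adjusted p = 1.81e-08). On chromosome 6, circRNA3352 had 7, 15 and 11 reads against 0, 0 and 0, at least 11-fold lower (adjusted p = 0.000114), and both calls remained with each library left out. Both met the minimum of 4 libraries only through day 30, where they are high, so the filter was not independent of the comparison. DESeq2 gave them adjusted p = 0.997 and 0.318. The 3 that rose rest on unequal libraries: circRNA3375 had 10, 0 and 0 reads against 66, 59 and 0, and circRNA12804 from the X-linked formin gene DIAPH2 had 0 in each day 30 library against 0, 7 and 18, with overlapping groups in both (adjusted p = 5.95e-06 and 0.00101). These 2 met that minimum only through day 90, and DESeq2 gave them adjusted p = 0.997 and 0.858. With day 90 replicate 3 left out circRNA12804 no longer passed (adjusted p = 0.583). The third, circRNA3477 on chromosome 12, had 6, 0 and 5 reads against 26, 25 and 13 (adjusted p = 0.0394, lost without 4 of the 6 libraries, up to 0.86 without day 30 replicate 2).

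The most abundant circRNAs did not pass. The highest, the intergenic circRNA3565 on chromosome 16, had 411, 259 and 314 junction reads at day 30 and 423, 268 and 247 at day 90. That of the nuclear export receptor exportin-4, circRNA641, had 92, 125 and 105 against 113, 124 and 96. An intron-derived circRNA on chromosome 10, ciRNA145, had 147, 161 and 141 reads at day 30 but 0, 0 and 163 at day 90, so that its groups overlapped (adjusted p = 0.498). With day 90 replicate 3 left out it passed (adjusted p = 2.5e-16), and with each of the other 5 left out it did not (up to 0.889 without day 30 replicate 2). By type the share of junction reads in intron-derived circRNAs was 5.04% to 5.34% at day 30 and 2.94%, 2.95% and 5.39% at day 90, also overlapping, and of 87 such circRNAs tested 0 passed.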

How the data were processed

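Spleen RNA was sequenced on a NovaSeq, per the labels' protocols, which give oligo-dT beads but also speak of a poly(A)- fraction, so how circRNAs, which lack a tail, came into the libraries is not settled. The authors deposited a raw read count and an FPKM for each assembled locus, and for each circRNA a count of back-splice junction reads and a signal (SRPBM, the junction count times 1 factor per library). HISAT2 2.0, StringTie 1.3.0 and Bowtie 0.12.2 are named in the submitters' processing notes, as is the build mm8, a mouse build. The circRNA caller, the strand setting and the pig annotation are not given in the sources used here. Columns of all 9 libraries were used, and none belonged to another sample.

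Counts of loci with a mean FPKM of at least 1 were fitted with edgeR 4.0.16 in R 4.3.3 (TMM factors 0.937 to 1.07, age as the only term), and junction counts of circRNAs seen in at least 4 libraries in the same way. The standard error is the log2 change divided by the square root of the F statistic. Tables were made with Python 3.11.15, pandas 2.3.3 and scipy 1.17.1. Tested on simulated data with 1 spread shared by all loci, the locus fit called 8 of 19064 unchanged loci. Alternatives used DESeq2 1.42.0, limma 3.58.1, other filters, a replicate block and left-out libraries.

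Families and lists were chosen with earlier results of these data known. Named loci were the 15 largest changes each way among described, non-overlapping called loci, the 10 largest differences in mean FPKM each way, up to 4 called members of each family by p and the most abundant member where few were called, the 4 largest changes each way without description, all members of the 8 longest runs, and the leading circRNAs. The text describes part of these. A few results are not reported here.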

Additional observations from a re-analysis of the deposited data

How the results depend on the processing

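The counts of calls moved with the tool, the filter and the libraries, while among the named loci 1 sign turned. DESeq2 called 2424 loci (891 higher and 1533 lower), a minimum of 5 FPKM left 404 (131 and 273) of 5427 tested, and limma with a pseudocount of 1 or 0.1 called 127 or 126 higher and 1593 or 1519 lower. Without day 90 replicates 2 and 3 together 9 passed (4 and 5), an alternative chosen after seeing the data. With 1 library left out the count lay between 280 and 1080 (83 to 378 higher, 181 to 702 lower). Undescribed calls numbered 1017 with DESeq2, 67 at 5 FPKM, 5 without both libraries and 101 to 406 with 1 left out. Families with a median of −0.5 or lower, 9 in the count fit as reported, numbered 24 and 16 under limma with 0.1 and 1, and 21 without both libraries. Runs numbered 117 with DESeq2, 56 under limma with 1, 21 without a filter, 2 at 5 FPKM, 0 without both libraries and 2 to 29 with 1 left out. CircRNA calls were 0 with DESeq2, 0 of 1398 seen in at least 6 libraries (61 at an unadjusted p under 0.05), 14 without a filter, 9 without both libraries and 4 to 8 with 1 left out. The difference in junction reads per 1 M counted was 42.4 to 62 with 1 left out. The cause of these shifts was not tested.

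Of 292 named loci called, 291 stayed called with DESeq2 and 232 under limma with 1, and 87 without day 90 replicate 1. MSTRG.21405 alone turned its sign, to −5.65 without day 90 replicates 2 and 3. Libraries of day 30 and day 90 with the same replicate number showed little shared deviation (correlations −0.006, 0.099 and −0.014). These 3 values do not settle whether the numbers pair them. With a replicate block 582 loci passed (165 higher and 417 lower), 211 of them undescribed, in 12 runs.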
